A study of Mus musculus with 2 samples.

Results

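Progenitor fibroblasts that carry Dpp4 and Sema3c transcripts made up 791 of the 3293 fibroblasts gated here, among 15741 cells of the stromal vascular fraction of mouse epididymal fat. A cell of the deposited count table, not named a doublet by the authors, was gated as a fibroblast by 4 conditions. Pdgfra was counted, Dcn and Lum together reached 20 counts per 10000, Cd68, C1qa and C1qb together stayed under 10 counts per 10000, and fewer than 2 of Cdh5, Kdr and Cldn5 were counted. A gated fibroblast was taken as a progenitor where at least 3 of the 6 rule genes Dpp4, Sema3c, Efhd1, Adamts16, Dmkn and Limch1 were counted. These values chose the cells, so every level given for them is a description and carries no test. The 3293 gated fibroblasts came to 21.4% of the 15374 cells that carry a hashtag name, and the progenitors came to 5.15%.

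The cells came from male mice of C57BL/6J background, wild-type (WT) or Mincle-deficient (Mincle KO), that ate a high-fat diet for 15 weeks. Clec4e encodes Mincle, a myeloid receptor of the C-type lectin family, and the labels do not say how or in which cells it was inactivated. Suspensions were stained with hashtag antibodies, pooled, captured on a microwell system (BD Rhapsody) and amplified by TAS-Seq, giving 1 library of transcripts and 1 of tags. The labels give neither the genotype that a hashtag stands for nor its number of mice, so Mincle-deficient and wild-type progenitors were not compared and hashtags were not treated as replicates.

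Adipose tissue holds several kinds of fibroblast that can be told apart by their transcripts. Dpp4 marks a population of the connective tissue around and between fat lobules, the reticular interstitium, and these cells have been described in mice as progenitors that give rise to committed preadipocytes, which carry Icam1 and lipid genes. A further kind, marked by F3, has been described in mouse subcutaneous fat as limiting the adipogenesis of its neighbours. Related cells with Pi16 and Dpp4 have been found in the adventitia of many mouse tissues.

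The hashtag of a fibroblast was less secure than that of a macrophage in this pool, which touches every value given by hashtag. Progenitors had a median of 34 tag counts, other gated fibroblasts 36, and macrophage-gated cells 1342. The most counted tag held a median of 54.5% of a progenitor's tags, 55.6% in other gated fibroblasts and 95.3% in macrophage-gated cells. It was the tag in the cell's name for 82.3% of progenitors, 84.0% of other gated fibroblasts and 99.0% of macrophage-gated cells. A single tag held at least 75% of 10 or more tag counts in 146 progenitors (18.5%), in 20.2% of other gated fibroblasts and in 93.2% of macrophage-gated cells. A second tag held over 25% in 45.8% of progenitors and 42.1% of other gated fibroblasts. By hashtag this was 47.8, 59.6, 64.0 and 9.39% of progenitors in A0309, A0310, A0311 and A0312, so A0312 stood apart, and its share of progenitors with a single tag was 37.6%, against 10.6 to 14.0% in the other hashtags. Hashtag values below therefore show how far a level moved between 4 subsets of the pool whose mice are not known. A limit of the count table also applies: 68 genes, Pi16, Dcn, Lum, Lpl, Fabp4 and Apoe among them, never take a value of 1 to 4, and their lowest values above 0 lie between 5 and 68. Shares of cells in which such a gene was counted are therefore understated, and so are its summed counts. The loss can differ between classes, and how far it moved the log2 ratios of these genes was not tested.

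The number of rule genes counted per fibroblast is the value that chose the progenitors and is given as a description. With 0, 1, 2, 3, 4, 5 and 6 rule genes counted, the gated fibroblasts numbered 1474, 699, 329, 169, 237, 259 and 126 cells. Progenitors were 24.0% of gated fibroblasts in the pool (95% exact Clopper-Pearson interval 22.6 to 25.5). They numbered 226, 198, 186 and 181 cells in A0309, A0310, A0311 and A0312, or 26.6, 21.1, 24.2 and 24.5% of the gated fibroblasts of each. The median progenitor had 40378 counts in 5070 genes, and the median of the other gated fibroblasts was 34566 counts in 4635.5 genes. Because a deeper cell shows more rule genes, all cells were also thinned to 15000 counts, and 21.1% of gated fibroblasts then met the rule.

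**Figure D1:**
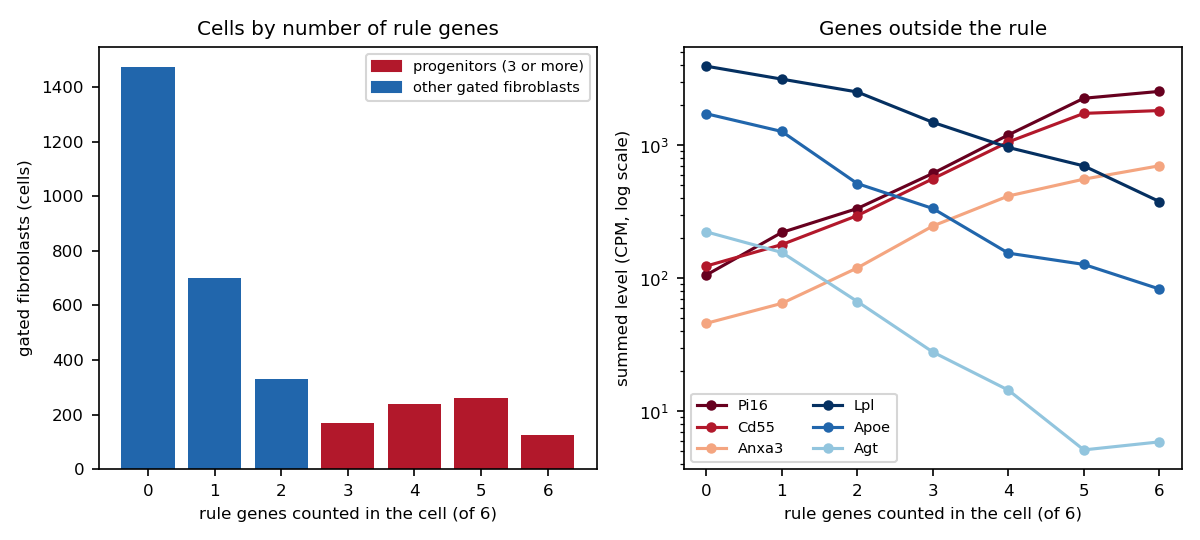
Left, number of gated fibroblasts (y axis, cells) by the number of the 6 rule genes counted in the cell (x axis); cells with 3 or more are the progenitors. Right, level summed over those cells (y axis, CPM, log scale) of 6 genes that the rule did not use. Pi16 and Cd55 climbed over the whole range of rule genes while Lpl, Apoe and Agt declined over most of it.

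Across the threshold, levels of Pi16, Cd55, Lpl and Apoe, which the rule did not use, changed by degrees, while Cxcl14, Smpd3 and Bmp7 changed more sharply between 2 and 3 rule genes. Levels are in CPM, the counts of a gene summed over cells as a share of the summed counts of all genes, scaled to 1000000. Just outside the threshold, cells with 2 rule genes had 335 CPM of Pi16, 297 CPM of Cd55 and 2519 CPM of Lpl. Just inside it, cells with 3 rule genes had 616 CPM of Pi16, 561 CPM of Cd55 and 1490 CPM of Lpl. Pi16, a peptidase inhibitor, is the usual marker of adventitial fibroblasts, Cd55 encodes the surface regulator that speeds the decay of complement convertases, and Lpl encodes lipoprotein lipase. Cells with all 6 had 2545 CPM of Pi16, 1826 CPM of Cd55 and 378 CPM of Lpl. Apoe, the gene of apolipoprotein E, stood at 335, 155, 127 and 83.2 CPM in cells with 3, 4, 5 and 6 rule genes. Cxcl14, a chemokine gene, stood at 64.5 CPM in cells with 2 rule genes and 5.31 CPM in cells with 3. Smpd3, a sphingomyelinase gene, stood at 29.0 CPM with 2 and 95.2 CPM with 3, and Bmp7, a bone morphogenetic protein gene, at 1.99 CPM with 2 and 7.13 CPM with 3.

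Among progenitors, shares of cells with a count also went with the number of rule genes after thinning to 15000 counts, which left out 13 progenitors. Ccn3, a matricellular protein of the CCN family, was counted in 21.5, 44.6, 64.8 and 73.0% of cells with 3, 4, 5 and 6 rule genes, and Bmp7 in 5.52, 20.6, 32.4 and 38.9%. Pi16, Lpl and Apoe had lost their low values at the full depth of each cell, so thinning does not bring them to equal depth. Pi16 was counted in 81.0, 87.6, 97.7 and 100% of cells with 3, 4, 5 and 6 rule genes. Lpl was counted in 86.5, 69.1, 66.0 and 58.7% of them and Apoe in 27.0, 16.7, 16.0 and 11.1%. Progenitors that met more of the rule thus also had Ccn3, Bmp7 and Pi16 counted more often and Lpl and Apoe less often. Smpd3 was counted in 37.4, 52.8, 59.0 and 58.7% of these cells, with no rise from 5 to 6 rule genes. Without thinning, 33.0% of progenitors and 77.3% of other gated fibroblasts had at least 3 of the preadipocyte genes Icam1, Fabp4, Lpl, Cxcl14, Tnc and Ggt5 counted. For the genes F3, Clec11a, Chrdl1, Fmo2, Meox1 and Gdf10 the shares were 21.7% of progenitors and 43.7% of other gated fibroblasts.

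The 6 rule genes went together when each was left out of the choice in turn, which describes how they are shared among cells of this pool. Dpp4, a membrane-bound dipeptidyl peptidase that trims peptide hormones and chemokines, was counted in 95.6% of the 643 fibroblasts chosen by the other 5 genes and in 24.3% of the 2650 not so chosen. Sema3c, a secreted semaphorin, was counted in 97.5% of 636 chosen and 25.8% of 2657 not chosen. Efhd1, a calcium-binding protein of mitochondria, was counted in 81.8% of 707 chosen and 7.62% of 2586 not chosen. Limch1, which encodes a protein tied to non-muscle myosin, gave 72.7% of 711 and 9.10% of 2582. Adamts16, a secreted metalloprotease, gave 56.8% of 767 and 1.86% of 2526, and Dmkn, first known from the epidermis, gave 30.1% of 775 and 2.14% of 2518. Dmkn was thus the rule gene that most progenitors lacked.

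Regions upstream of the start are shown for Dpp4 and Efhd1, which were used in the choice, and for Cd55, which was not. Of the rule genes, Pi16 and Cd55, these have 1 annotated start and no annotated exon in the window. Dmkn and Limch1 had 3 starts, Adamts16 had no entry, and Sema3c and Pi16 had an exon in the window. Each is the 250 bases before the start annotated by RefSeq (GRCm38.p6), written 5′ to 3′ on the strand of the gene, and capitals mark a TATAAA motif. The Dpp4 window is chr2:62412232-62412481 on the minus strand, that of Efhd1 chr1:87264103-87264352 on the plus strand and that of Cd55 chr1:130462745-130462994 on the minus strand.
Dpp4: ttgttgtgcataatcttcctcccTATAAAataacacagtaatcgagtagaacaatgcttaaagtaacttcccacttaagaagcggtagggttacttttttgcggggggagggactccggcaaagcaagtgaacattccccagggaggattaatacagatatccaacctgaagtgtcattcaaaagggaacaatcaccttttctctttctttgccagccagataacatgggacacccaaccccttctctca
Efhd1: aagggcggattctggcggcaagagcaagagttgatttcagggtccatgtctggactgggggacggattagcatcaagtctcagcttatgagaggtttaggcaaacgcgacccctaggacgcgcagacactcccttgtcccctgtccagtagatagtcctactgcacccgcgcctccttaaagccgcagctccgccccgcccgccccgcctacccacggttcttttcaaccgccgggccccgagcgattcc
Cd55: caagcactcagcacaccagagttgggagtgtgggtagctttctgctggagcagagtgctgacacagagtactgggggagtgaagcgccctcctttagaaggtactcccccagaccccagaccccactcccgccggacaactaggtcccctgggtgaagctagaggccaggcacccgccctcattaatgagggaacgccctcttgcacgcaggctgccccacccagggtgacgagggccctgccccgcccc

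The windows differed in base composition, and of 3 motifs searched on both strands a single match was found. G and C made up 43.6% of the Dpp4 window, 60.8% of the Efhd1 window and 64.0% of the Cd55 window, which held 4, 19 and 8 CG pairs. TATAAA was present in the Dpp4 window, beginning 227 bases before the start, and in 12.4% of 32851 windows of the same length. TGANTCA, the AP-1 motif, was in none of the 3 windows and in 6.75% of all windows. CCAAT was in none of the 3 and in 33.8% of all windows. A match or its absence says only which letters the window holds.

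The chosen cells had high levels of the transcripts that define the Dpp4 population, and also of its marker Pi16, which the rule did not use. Dpp4, on chromosome 2 from 62330073 to 62412231 of GRCm38, stood at 310.4, 349, 325 and 368 CPM in the progenitors of A0309, A0310, A0311 and A0312, and at 22.7, 24.3, 20.4 and 24.5 CPM in the other gated fibroblasts. Sema3c stood at 787, 858, 948 and 964 CPM in progenitors and at 27.5, 26.7, 28.1 and 20.7 CPM in the others. Pi16, on chromosome 17 from 29317680 to 29330593, was not used in the choice and stood at 1196, 1987, 1681 and 1888 CPM in progenitors and at 149.7, 181, 192 and 177 CPM in the others. Dpp4 and Sema3c chose the cells, so their difference was set by the choice. Pi16 was higher in progenitors than in the others in every hashtag and was lowest among progenitors in A0309. Efhd1 averaged 165 CPM in progenitors and 3.16 in other gated fibroblasts, Limch1 120.4 and 5.19, Adamts16 109.6 and 0.546, and Dmkn 79.6 and 1.72.

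Shares of cells with a count also differed between the classes. After thinning, Dpp4 was counted in 90.2% of 778 progenitors (96.5% unthinned), in 14.9% of 2328 other gated fibroblasts and in 1.27% of 7304 macrophage-gated cells. Adamts16 was counted in 48.3% of progenitors (58.2% unthinned), in 0.558% of other gated fibroblasts and in 0.260% of macrophage-gated cells. Pi16 was counted in 91.5% of progenitors (92.9% unthinned), in 33.3% of the others and in 0.397% of macrophage-gated cells, with its low values lost before thinning. Before thinning the medians were 40378 counts per progenitor, 34566 per other gated fibroblast and 39308.5 per macrophage-gated cell. Many other gated fibroblasts therefore had a count of Pi16 without meeting the rule, and Pi16 alone would draw a wider set of cells.

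Progenitors were set against the 2502 other gated fibroblasts by a rule of size. The log2 ratio was taken of CPM with a pseudocount of 1 added. A gene was called where this ratio reached 1 or -1, always on the same side, for the whole pool and for all 4 hashtags. Of 11486 genes at 5 CPM or more in either class, genes of the gate and of the rule left out, 222 (1.93%) were called higher and 252 (2.19%) lower in progenitors, 4.13% in either direction. The median log2 ratio of all these genes was 0.01. The choice of cells on 6 genes drew correlated genes with it, so these shares are read as a description of the chosen cells. Log2 ratios on this scale understate the ratio of genes with low CPM.

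**Figure D2:**
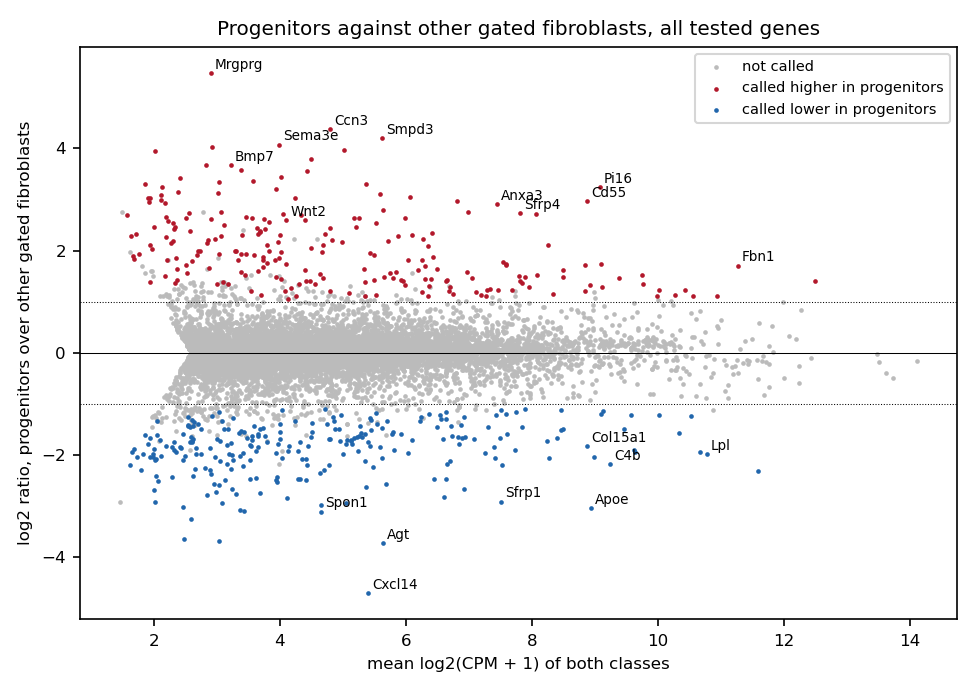
Log2 ratio of progenitors over other gated fibroblasts (y axis) against the mean log2(CPM + 1) of both classes (x axis) for the 11486 genes tested. Points in red were called higher and in blue lower in progenitors, dotted lines mark a log2 ratio of 1 in size, and Mrgprg, Ccn3, Smpd3, Pi16 and Cd55 lie far above them and Cxcl14, Agt and Apoe far below.

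The genes with the largest positive log2 ratios encoded receptors, secreted factors and enzymes, among others. Smpd3, which encodes neutral sphingomyelinase of cell membranes, stood at 367, 160.4, 153 and 134 CPM in progenitors of A0309, A0310, A0311 and A0312, and at 18.3, 7.23, 10.8 and 5.82 CPM in other gated fibroblasts, a log2 ratio of 4.20 in the pool. Ccn3 stood at 157, 103, 126 and 109 CPM in progenitors and at 5.13, 5.06, 4.70 and 5.47 CPM in the others, a log2 ratio of 4.38. Both genes were highest in the progenitors of A0309. That the classes lay apart in every hashtag follows from the size rule for called genes. Sema3e, a secreted semaphorin that binds plexin D1, had 63.7 CPM in progenitors and 2.84 in the others (log2 ratio 4.08), while Plxnd1, the gene of that receptor, was called lower with 14.2 CPM in progenitors and 48.4 in the others (log2 ratio -1.70). Tnfrsf11b, which encodes osteoprotegerin, the decoy receptor of RANK ligand, had 129 CPM in progenitors and 12.2 in the others (log2 ratio 3.30).

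Of the 15 genes with the largest ratios, 3 are also known from epithelia and were picked out after their values were seen. Dsp, the gene of the desmosome protein desmoplakin, had 29.5 CPM in progenitors and 0.878 in other gated fibroblasts (log2 ratio 4.02). Krtdap, a secreted protein of differentiating keratinocytes, had 24.4 CPM in progenitors and 0.996 in the others (log2 ratio 3.67), and its annotated position on chromosome 7, from 30787896 to 30791097, follows that of Dmkn, from 30763756 to 30781063. Duox1, a hydrogen peroxide producing oxidase of epithelia, had 35.2 CPM in progenitors and 2.02 in the others (log2 ratio 3.58). The epithelial markers Epcam, Cdh1, Krt7 and Cldn4 together summed to 1.61 CPM in progenitors and 0.964 in the others, with Cldn4 at 0 in progenitors. Dsp was counted in 26.9% of progenitors (19.0% thinned), 1.12% of other gated fibroblasts and 0.648% of macrophage-gated cells. Krtdap was counted in 17.3% of progenitors (13.5% thinned), 0.999% of the others and 0.147% of macrophage-gated cells, so each gene was counted in a minority of progenitors. The other 7 of the 15 genes, Aif1l, Bmp6, Arl4d, Adgrg2, Car8, Rgs6 and Tnfrsf11b, had log2 ratios of 3.30 to 3.96.

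Some calls rested on few cells. Mrgprg, an orphan receptor of the Mas-related family, had the largest ratio of all named genes outside the rule, at 48.8 CPM in progenitors and 0.118 in the others (log2 ratio 5.48). It stood at 111, 29.8, 27.1 and 15.6 CPM in the progenitors of A0309, A0310, A0311 and A0312, and at 0.131, 0.0723, 0.174 and 0.101 CPM in the others. Mrgprg was counted in 9.73% of progenitors (8.48% thinned), in 0.360% of other gated fibroblasts and in 0.208% of macrophage-gated cells. The share was 18.6% in the progenitors of A0309 and 4.84 to 7.07% in those of the other hashtags. Thbs4, the gene of thrombospondin 4, had 50.3 CPM in progenitors and 6.93 in the others (log2 ratio 2.69), but 5 cells held 77.3% of its progenitor counts and it was counted in 4.30% of progenitors. Without A0311, which held the highest level, its log2 ratio was 1.51, and the call was lost in the thinned cells (log2 ratio 2.19). Without A0309 the log2 ratio of Mrgprg was 4.52, and Mrgprg was still called, but it lost the call (log2 ratio 4.92) under a stricter tag assignment, in which a single tag had to hold 75% of at least 10 tag counts and which left 146 progenitors.

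The Wnt ligand genes Wnt2 and Wnt10b were higher in progenitors than in other gated fibroblasts, and the Wnt antagonist gene Sfrp1 was lower. Of 13 tested Wnt ligands and secreted Wnt modulators, 3 were called higher and 1 lower, against 1.93 and 2.19% of all genes. Their median log2 ratio was 0.43, against 0.01 for all genes. The ligand genes Wnt4, Wnt5a, Wnt9a and Wnt11 were not called. Wnt2 stood at 49.1, 37.4, 42.6 and 34.4 CPM in progenitors and at 6.22, 6.26, 6.93 and 4.1 CPM in the others (log2 ratio 2.60). Under the stricter tag assignment Wnt2 lost the call (log2 ratio 2.03). Wnt10b, a ligand known in mice to restrain adipogenesis, had 12.5 CPM in progenitors and 0.428 in the others (log2 ratio 3.24). The secreted frizzled-related proteins, which bind Wnt proteins, went both ways: Sfrp4 had 578 CPM in progenitors and 86.5 in the others (log2 ratio 2.73), and Sfrp1 had 65.7 CPM in progenitors and 503 in the others (log2 ratio -2.92). Sfrp2 had 116 CPM in progenitors and 38.7 in the others and was not called, because its log2 ratio was 0.86 in A0309, the 1 hashtag in which it fell short. Without A0309 the log2 ratio was 1.78.

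Of 13 tested BMP ligands, antagonists and receptors, 2 were called higher and 2 lower in progenitors, against 1.93 and 2.19% of all genes. Their median log2 ratio was -0.11. Bmp7, a ligand known in mice for brown fat formation, stood at 35.7, 31.6, 21.2 and 40.8 CPM in progenitors and at 1.04, 2.06, 1.35 and 1.97 CPM in the others (log2 ratio 3.67). Bmp2 was called higher (log2 ratio 1.82), and Bmp4, a ligand that commits mouse precursor cells to the fat lineage, was called lower at 2.88 CPM in progenitors and 8.93 in the others (log2 ratio -1.36). Bmper, the gene of a secreted BMP binding protein, was called lower (log2 ratio -1.67). Bmp6, named by its ratio over all genes and not on the list, had 82.9 CPM in progenitors and 5.05 in the others (log2 ratio 3.80). Fstl1, a secreted glycoprotein that binds BMPs, had the highest level of the uncalled genes of the list, at 5782 CPM in progenitors and 2889.8 in the others, a log2 ratio of 1.00 in the pool that lay between 0.90 and 1.07 over hashtags. A0310 was the 1 hashtag in which it fell short, and without it the log2 ratio was 1.03.

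Of 18 tested TGF-beta genes, none was called higher and 1, the activin receptor gene Acvr2a, was called lower (31.7 CPM in progenitors, 81.4 in the others, log2 ratio -1.33). The share called is near the 4.13% over all genes. The median log2 ratio of the list was -0.13, and it turned to 0.13 in thinned cells and 0.17 under the stricter tag assignment. Tgfb1, the fibrogenic cytokine gene, stood at 24.5, 30.7, 23.6 and 26.6 CPM in progenitors and at 39.1, 35.8, 30.1 and 33.8 CPM in the others, a log2 ratio of -0.39 that was not called. Each progenitor value of Tgfb1 was below that of the others in the same hashtag. Ltbp4, which encodes a protein that holds latent TGF-beta in the matrix, had the highest level of the uncalled genes of the list, with 744 CPM in progenitors and 512 in the others (log2 ratio 0.54).

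Matrix genes were called in both directions in progenitors. Of 18 tested collagen chains, 1 was called higher and 4 lower, against 1.93 and 2.19% of all genes. Their median log2 ratio was -0.57. Under the stricter tag assignment none was called higher and 5 lower, and Col14a1 (log2 ratio 1.23) and Col18a1 lost their calls. Col14a1, a fibril-associated collagen, stood at 1125, 1053, 1132 and 1103 CPM in progenitors and at 449, 337, 438 and 393 CPM in the others (log2 ratio 1.46). Col15a1, a collagen of basement membrane zones, stood at 226, 291, 258 and 222 CPM in progenitors and at 829.8, 968, 905 and 813 CPM in the others (log2 ratio -1.83). For both genes the 2 classes lay apart in every hashtag, which the size rule requires of a called gene. The basement membrane collagen genes Col4a2 (681 CPM in progenitors, 1583 in the others, log2 ratio -1.22) and Col18a1 (127 CPM in progenitors, 293 in the others, log2 ratio -1.20) and the beaded filament gene Col6a3 (501 CPM in progenitors, 1166 in the others, log2 ratio -1.22) were also called lower. Col3a1, the most abundant uncalled collagen of the list, had 10978 CPM in progenitors and 14476 in the others (log2 ratio -0.40).

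Of 23 tested elastic fibre and matrix glycoprotein genes, 6 were called higher and 3 lower, against 1.93 and 2.19% of all genes. Their median log2 ratio was 0.22, and under the stricter tag assignment 4 were higher and 2 lower. Fbn1, the gene of fibrillin 1, the core of microfibrils, had 4469 CPM in progenitors and 1369 in the others (log2 ratio 1.71), and Emilin2, an elastin interface protein, had 349 CPM in progenitors and 104 in the others (log2 ratio 1.74). Fn1 (log2 ratio 1.40), Efemp1 (1.34) and Mfap5 (1.11), which encode fibronectin, fibulin 3 and a microfibril protein, completed the 6 with Thbs4. Lower were the matricellular genes Tnc (9.31 CPM in progenitors, 42.7 in the others, log2 ratio -2.08) and Sparcl1 (404 CPM in progenitors, 1561 in the others, log2 ratio -1.95) and the fibulin gene Fbln1 (109 CPM in progenitors, 408 in the others, log2 ratio -1.90). In the list of proteases, inhibitors and crosslinkers, 2 of 21 were called higher and 3 lower. Timp3, a matrix-bound metalloprotease inhibitor, had 834 CPM in progenitors and 252 in the others (log2 ratio 1.73), and Mmp3, the gene of stromelysin 1, had 47.2 CPM in progenitors and a log2 ratio of -2.67. Mmp3 was counted in 5.44% of progenitors, and 5 cells held 50.9% of its progenitor counts. The enhancers of procollagen processing went opposite ways, Pcolce2 with a log2 ratio of 1.29 and Pcolce with one of -1.49. Ugdh, which makes the sugar precursor of hyaluronan, was called higher among 17 proteoglycan and hyaluronan genes (631 CPM in progenitors, 204 in the others, log2 ratio 1.62) and Fmod, the gene of fibromodulin, lower (log2 ratio -3.10).

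**Figure D3:**
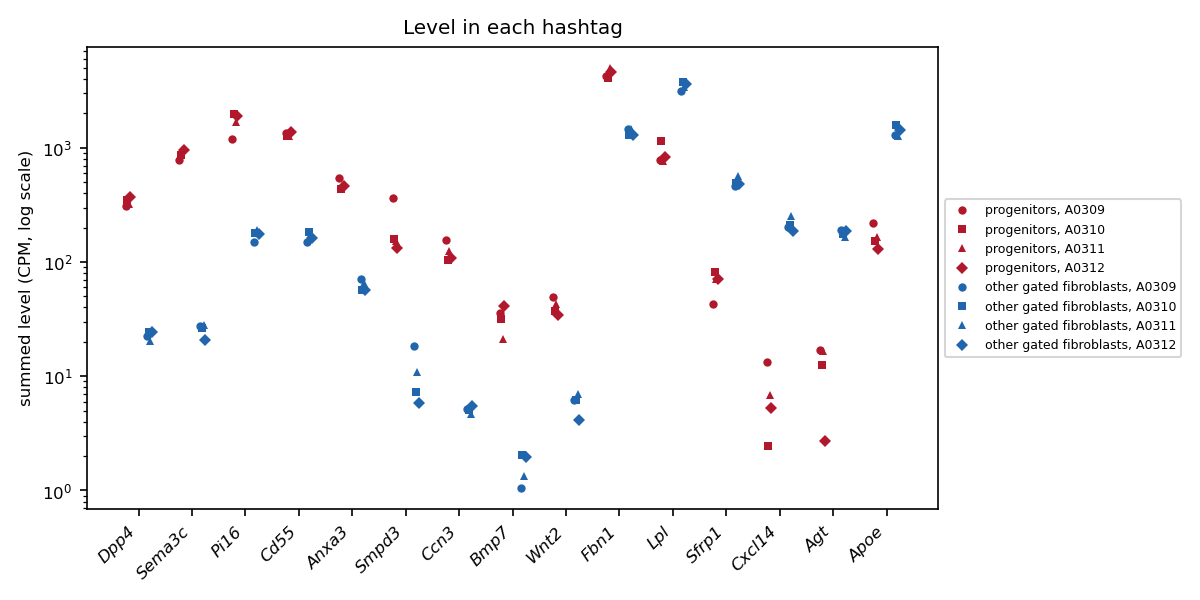
Level summed over cells (y axis, CPM, log scale) of 15 genes in progenitors (red) and other gated fibroblasts (blue), with 1 symbol shape for each of the 4 hashtags. In each gene the 4 red and the 4 blue points lie apart, which the choice of cells set for Dpp4 and Sema3c. The other genes were all called, and the size rule asks for a log2 ratio of at least 1 in size in every hashtag. The spread among progenitors is widest in Cxcl14 and Agt, whose levels there are lowest.

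Lpl, Fabp4, Nr2f2 and G0s2 were lower in progenitors among 16 tested adipogenic and lipid genes, none was called higher, and the other 12 were not called. The median log2 ratio of the list was -0.73, and over all genes 1.93% were called higher and 2.19% lower. Under the stricter tag assignment 2 were called lower, Fabp4 and G0s2 losing the call. Lpl stood at 786, 1144, 772 and 834 CPM in progenitors and at 3126, 3793, 3387 and 3596 CPM in the others (log2 ratio -1.98). Fabp4, the fatty acid binding protein of adipocytes, had 49.1 CPM in progenitors and 216 in the others (log2 ratio -2.12), was counted in 6.45% of progenitors, and 5 cells held 46.1% of its progenitor counts. Nr2f2, an orphan nuclear receptor gene, and G0s2, the gene of an inhibitor of adipose triglyceride lipase, were called lower with log2 ratios of -1.64 and -1.39. Pparg, the nuclear receptor that drives adipogenesis, had 4.96 CPM in progenitors and 17.1 in the others (log2 ratio -1.60) and was not called, since its ratio was -0.71 in 1 hashtag. Apoe, outside this list, stood at 222, 151, 166 and 131 CPM in progenitors and at 1295, 1593, 1281 and 1433 CPM in the others (log2 ratio -3.04). Agt, the gene of angiotensinogen, had 12.6 CPM in progenitors and 180.0 in the others (log2 ratio -3.73). Before thinning, Lpl, Apoe and Fabp4 were counted in 93.2, 91.4 and 48.2% of macrophage-gated cells, so they are not particular to fibroblasts. In other gated fibroblasts the shares were 94.1, 70.9 and 25.2%. Without cells that had a count of Cd74, Lyz2, H2-Ab1 or Tyrobp, Fabp4, Lpl, Nr2f2 and G0s2 were still called lower. Fabp4, Lpl, Apoe, Fbn1, Fn1, Mfap5, Mmp3, Col3a1, Col4a2 and Fstl1 are among the 68 genes whose low values were set to 0.

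Of 19 tested chemokine and cytokine genes, none was called higher and 4 lower, against 1.93 and 2.19% of all genes. Their median log2 ratio was 0.15, which turned to -0.02 in thinned cells and -0.10 under the stricter tag assignment. Cxcl14, a chemokine of epithelia and stroma, stood at 13.3, 2.43, 6.90 and 5.30 CPM in progenitors and at 202, 213, 253 and 186 CPM in the others, a log2 ratio of -4.71 and the largest negative one among the genes named in this comparison. Beside Agt, Apoe, Fmod and Cxcl14, the 10 genes called lower with the largest ratios at 20 CPM or more were Egflam, Spon1, Olfm2, Fxyd6, Gucy1a1 and Vtn, with log2 ratios of -3.68 to -2.94. Cxcl12, the ligand of Cxcr4, had 213 CPM in progenitors and 604 in the others (log2 ratio -1.50), while Ackr3, the scavenging receptor that takes Cxcl12 up, stood at 605, 721, 666 and 767 CPM in progenitors and at 102, 110.2, 104 and 97.7 CPM in the others (log2 ratio 2.71). Cx3cl1 (log2 ratio -2.53) and Ccl19 (log2 ratio -2.23), chemokines for monocytes and for lymphocytes and dendritic cells, were also called lower. Ccl11, the eotaxin gene, had the highest level of the uncalled genes of the list, with 739 CPM in progenitors and 625 in the others (log2 ratio 0.24).

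Among 11 tested complement genes, Cd55 was called higher and C4b and C2 lower in progenitors, against 1.93 and 2.19% of all genes. Cd55 stood at 1362, 1269.8, 1269 and 1366 CPM in progenitors and at 149, 182, 168 and 164 CPM in the others (log2 ratio 2.98). C4b had 282 CPM in progenitors and 1282 in the others (log2 ratio -2.18), and reads of C4b and its near-identical copy C4a may have been split in counting. C2 had 21.9 CPM in progenitors and 79.8 in the others (log2 ratio -1.82). C3, the most abundant uncalled gene of the list, had 3491 CPM in progenitors and 4893 in the others (log2 ratio -0.49).

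Of 23 tested growth factor and binding protein genes, 3 were called higher and 7 lower, against 1.93 and 2.19% of all genes. Their median log2 ratio was -0.60. Under the stricter tag assignment none was called higher and 1, Pdgfrl, lower, so Pdgfc (log2 ratio 1.93), Fgf10 (-2.48) and Igfbp3 (-2.66) lost their calls there. Pdgfc, a ligand of PDGF receptor alpha, had 14.2 CPM in progenitors and 1.30 in the others (log2 ratio 2.73). Fgf10, a ligand known in mice to promote fat development, had 2.74 CPM in progenitors and 22.9 in the others (log2 ratio -2.68), and Igfbp3, an IGF binding protein, had 1.73 CPM in progenitors and 17.8 in the others (log2 ratio -2.79). Pdgfrl, a PDGF receptor-like gene, was called lower at 5.50 CPM in progenitors and 45.5 in the others (log2 ratio -2.84). In the guidance list of 18 tested genes, 4 were called higher and 3 lower. Under the stricter tag assignment the 4 higher genes were Sema3b, Sema3d, Sema3e and Ntn4, and none was lower. Efnb2, Plxnd1, Slit2 and Unc5b thus lost their calls there. Sema3d joined Sema3e among the higher ones (60.3 CPM in progenitors, 12.2 in the others, log2 ratio 2.21), as did Efnb2, the gene of ephrin B2 (11.6 CPM in progenitors, 2.32 in the others, log2 ratio 1.92), and Unc5b, a netrin receptor gene, was lower (2.36 CPM in progenitors, 15.5 in the others, log2 ratio -2.30).

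Of 17 tested surface antigen genes, 7 were called higher and 2 lower, with a median log2 ratio of 0.38. Over all genes 1.93% were called higher and 2.19% lower. Among the higher ones, Cd55, Anxa3, Ackr3 and Procr also stand among the markers listed for the Dpp4 population. The list was chosen with earlier results of these data known, so its share of calls is a description only. Under the stricter tag assignment 4 were called higher and 1 lower, and the median was near 0. Anxa3, the gene of annexin A3, stood at 541, 433, 463 and 467 CPM in progenitors and at 71.7, 56.8, 65.8 and 57.1 CPM in the others (log2 ratio 2.91). It was also counted in 82.8% of macrophage-gated cells, 94.2% of progenitors and 46.6% of other gated fibroblasts. The other 4 higher genes, which the naming rule did not reach and which are named after their values were seen, were Cd34 (1455 CPM in progenitors, 509.4 in the others, log2 ratio 1.51), Procr (log2 ratio 1.38), Ly6c1 (1.13) and Cd248 (1.12). Vcam1, an adhesion molecule for leukocytes, had 59.3 CPM in progenitors and 186 in the others (log2 ratio -1.64). Ly6a, which encodes the stem cell antigen Sca-1, had 2557 CPM in progenitors and 1642 in the others (log2 ratio 0.64) and was not called.

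Among 18 tested positional and lineage transcription factors, 2 were called higher and 2 lower, against 1.93 and 2.19% of all genes. The lower ones lost the call under the stricter tag assignment. Creb5 stood at 207, 164, 181 and 217 CPM in progenitors and at 35.8, 36.9, 36.7 and 39.0 CPM in the others (log2 ratio 2.35). Tcf21, a mesenchymal factor of visceral organs and visceral fat, had 142 CPM in progenitors and 39.7 in the others (log2 ratio 1.81). The homeobox genes Meox1 and Meox2 were called lower with log2 ratios of -1.65 and -1.82. Klf4 was the uncalled factor with the highest level, at 2349 CPM in progenitors and 1684 in the others (log2 ratio 0.48). Of 11 tested retinoid and prostanoid genes, 2 were called higher and none lower: Ptgs1, the gene of cyclooxygenase 1 (65.8 CPM in progenitors, 14.0 in the others, log2 ratio 2.16), and Ptgis, the gene of prostacyclin synthase (347 CPM in progenitors, 105 in the others, log2 ratio 1.71).

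**Figure D4:**
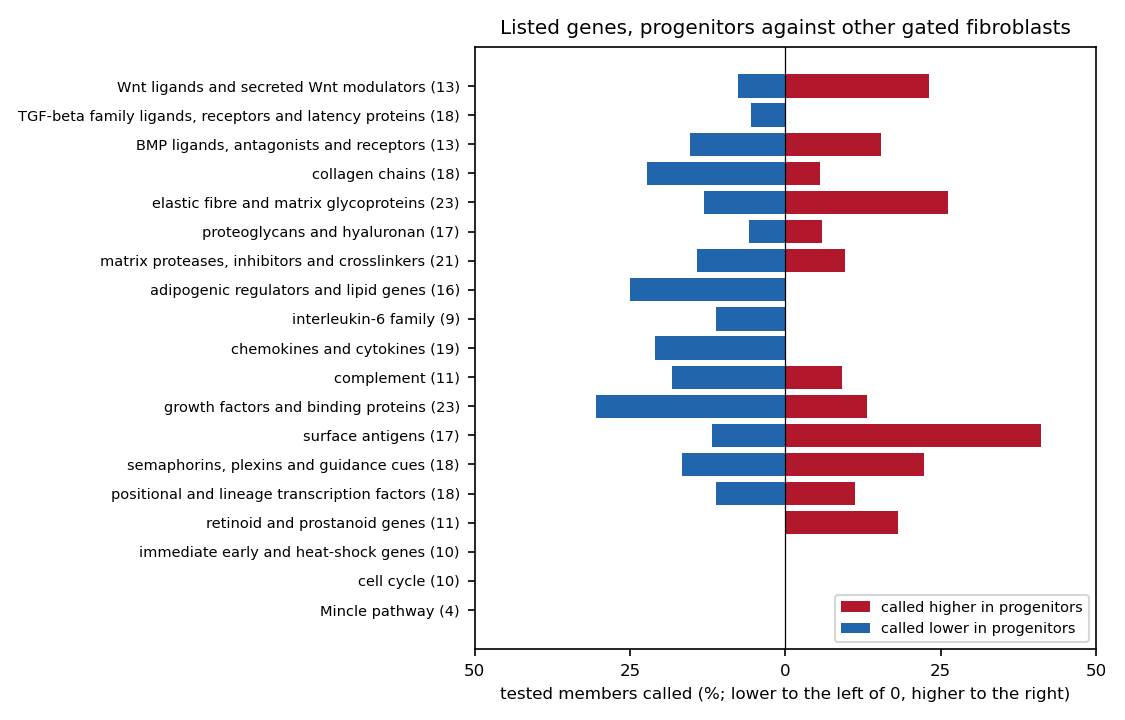
Share of the tested genes of each list (x axis, percent) that were called higher (red, to the right) or lower (blue, to the left) in progenitors against other gated fibroblasts, with the number of tested genes in brackets. Over all 11486 tested genes 1.93% were called higher and 2.19% lower. Surface antigens, a list that holds known markers of the Dpp4 population, had the longest bar to the right. The 3 lists immediate early, cell cycle and Mincle pathway had no call.

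The oncostatin M receptor and the Mincle pathway bear on the signal from macrophages to fibroblasts that the series addresses. Osmr stood at 68.9, 86.1, 78.1 and 67.8 CPM in progenitors and at 169, 175, 153 and 156 CPM in the others. Its log2 ratio was -1.12 in the pool and -0.96 in the hashtag with the smallest difference, so it missed the size rule although the 2 classes did not overlap. A0311 was the 1 hashtag in which it fell short, and without it the log2 ratio was -1.17. Lifr, the receptor subunit of leukemia inhibitory factor, was the called gene of 9 tested interleukin-6 family genes (18.0 CPM in progenitors, 65.2 in the others, log2 ratio -1.80). Socs3, a feedback inhibitor induced by this family, was near equal at 1128 CPM in progenitors and 1125 in the others. Clec4e was at 0.691 CPM in progenitors and 0.300 in the others and Osm was at 0.403 CPM in progenitors and 0.728 in the others, both below the 5 CPM needed for the comparison. None of the 4 tested Mincle pathway genes was called, which says little about the pathway, since 4.13% of all genes were called.

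No immediate early or heat-shock gene of 10 tested was called, a group that responds to tissue digestion. With 4.13% of all genes called, this is near the share over all genes. Fos, the most abundant of them, had 4434 CPM in progenitors and 5309 in the others (log2 ratio -0.26), and the median of the list was -0.25. For the 10 cell cycle genes the median log2 ratio was 1.08 although none was called in every hashtag. At least 3 of these 10 genes were counted in 79 progenitors, 9.99% (7.99 to 12.3), and in 176 other gated fibroblasts, 7.03% (6.06 to 8.11). After thinning the shares were 4.11% of progenitors (2.83 to 5.76) and 2.62% of other gated fibroblasts (2.01 to 3.35), and the intervals, which cover counting error only, overlapped. With the size rule applied in the pool alone, 6 of the 10 were called higher, but 59.2% of the Top2a counts of progenitors came from 5 cells. Without the cells with at least 3 of these genes counted, the median of the list was -0.08.

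Transcripts of other cell types were present at low levels in the progenitors. With the macrophage limit lowered to 2 counts per 10000, 739 progenitors were left, and 222 genes were called higher and 260 lower against the other gated fibroblasts. Without cells that had a count of Cd74, Lyz2, H2-Ab1 or Tyrobp, 214 were called higher and 258 lower. The part of other cell types than macrophages in the results was not tested. The 7 macrophage markers outside the gate, Adgre1, C1qc, Csf1r, Lyz2, Cd74, Mrc1 and Fcer1g, all had counts and summed to 242 CPM in progenitors (72.6 to 430 over hashtags), 197 CPM in the others (163 to 228) and 16376 CPM in macrophage-gated cells. Mesothelial markers summed to 52.3 CPM in progenitors (30.5 to 111) and 27.0 in the others (23.4 to 29.5), and each of the 10 was higher in progenitors. Rspo1 alone gave 35.2 CPM in progenitors and 25.9 in the others. Upk3b had 6.34 CPM in progenitors and 0.0857 in the others, Msln 4.70 and 0.653, and Krt19 1.70 and 0.171. Krt8, Krt18, Bnc1 and Muc16 were at 0 in the others and at 0.778, 1.01, 0.346 and 0.835 CPM in progenitors. Endothelial markers outside the gate summed to 23.4 CPM in progenitors and 57.4 in the others. Plvap alone gave 7.29 CPM in progenitors and 45.2 in the others, and Aqp1 was the other way, at 7.72 CPM in progenitors and 2.63 in the others. Mural markers summed to 35.6 CPM in progenitors and 86.4 in the others. Of the adipocyte markers, Adipoq had 0.0576 CPM in progenitors and 0.171 in the others, Lep was at 0 in progenitors, and Plin1 had 10.1 CPM in progenitors and 13.1 in the others. All 20 markers of the Dpp4 population reached 5 CPM in progenitors, and 15 did in the others, but 6 of them are the rule genes that chose the cells.

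Between the 4 hashtags, progenitors varied little in most genes. Of 3269 genes at 50 CPM or more in progenitors, 23 (0.704%) had a ratio of highest to lowest hashtag of at least 2, and the median ratio was 1.16. The widest ratios were those of Cd74, Retnla, H2-Ab1, Thbs4 and Lyz2, in which 5 cells held 69.2 to 87.1% of the progenitor counts. All but the matrix gene Thbs4 are known from myeloid cells. Cd74, the invariant chain, stood at 33.5, 210.0, 149 and 4.00 CPM in progenitors and at 72.3, 85.2, 44.7 and 108 CPM in the others, and 5 cells held 72.2% of its progenitor counts. Retnla, a gene of alternatively activated macrophages, stood at 10.2, 181, 5.73 and 8.65 CPM in progenitors, and 5 cells held 87.1% of its counts. It was nonetheless counted in 22.1% of progenitors, against 3.92% for Cd74, and stood at 12.8, 8.32, 10.0 and 9.87 CPM in the others. Ccl2, the monocyte chemokine, had 607, 235, 231 and 173 CPM in progenitors and 136, 171, 138 and 100.2 CPM in the others, with 21.5% of its progenitor counts in 5 cells. Smpd3 and Daglb, a diacylglycerol lipase gene, were also highest in the progenitors of A0309, Daglb at 196 CPM there and at 73.1 to 80.6 CPM in the other hashtags. These hashtags have no known genotype, so no group is set against another.

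Progenitors were next set against 2 fibroblast sets with names taken from their genes. The preadipocyte set held 1029 gated fibroblasts with at least 3 of Icam1, Fabp4, Lpl, Cxcl14, Tnc and Ggt5 counted and fewer than 3 of the F3 genes, and the F3 set held 189 with at least 3 of F3, Clec11a, Chrdl1, Fmo2, Meox1 and Gdf10 and fewer than 3 of the preadipocyte genes. Median counts were 40378 per progenitor, 33432 in the preadipocyte set and 30495 in the F3 set. These sets are drawn from the other gated fibroblasts, so the comparisons share the progenitors and many of the cells set against them. With the genes of both sets also left out, 235 of 11520 genes (2.04%) were called higher and 238 (2.07%) lower in progenitors against the preadipocyte set, 4.11% in either direction. Against the F3 set, 153 of 11530 genes (1.33%) were called higher and 125 (1.08%) lower, 2.41% in either direction. The F3 set had 41 to 52 cells in a hashtag, so its levels rest on fewer counts. Genes of the preadipocyte set were also counted in macrophage-gated cells: Lpl in 93.2%, Icam1 in 55.2%, Fabp4 in 48.2%, Cxcl14 in 33.0%, Ggt5 in 6.58% and Tnc in 1.49%.

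**Figure D5:**
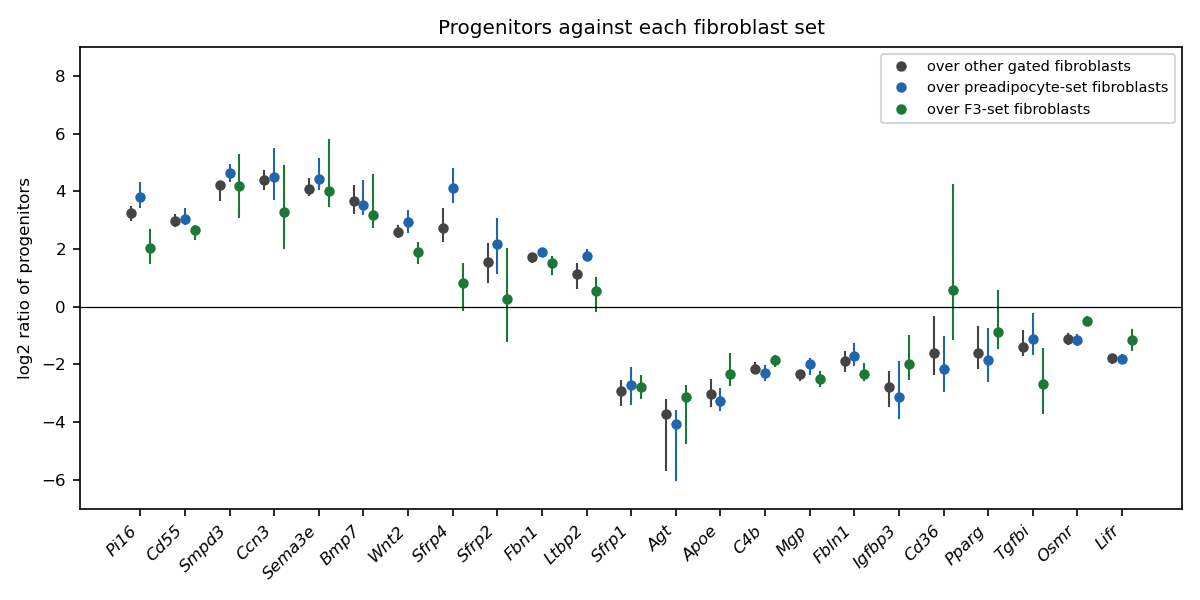
Log2 ratio of CPM plus 1 (y axis) of progenitors over other gated fibroblasts (grey), over preadipocyte-set fibroblasts (blue) and over F3-set fibroblasts (green) for 23 genes chosen after their values were seen. Points are the pool and vertical lines run from the lowest to the highest hashtag; Sfrp4 lies at 4.12 over the preadipocyte set and at 0.82 over the F3 set, while Sfrp1, Agt, Apoe and C4b are below 0 over all 3.

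Against the preadipocyte set, 4 of 13 tested Wnt ligand and modulator genes were called higher in progenitors and 1 lower, where 2.04 and 2.07% of all genes were. Of 12 tested adipogenic and lipid genes none was called higher and 3 lower. The set was picked by counts of Lpl and Fabp4 among others, and that choice drew genes that go with them. The lipid gene counts therefore describe the 2 chosen sets only. Sfrp4 stood at 488, 582, 621 and 641 CPM in progenitors and at 18.9, 20.5, 49.5 and 44.3 CPM in the preadipocyte set (log2 ratio 4.12). Sfrp2 was called here with a log2 ratio of 2.18, and Ltbp2, a latent TGF-beta binding protein gene, with one of 1.77. Cd36, the fatty acid translocase gene, had 28.5 CPM in progenitors and 129.5 in the preadipocyte set (log2 ratio -2.15), and Plin2, a lipid droplet coat gene, had 122 CPM in progenitors and 269 in the preadipocyte set (log2 ratio -1.13). Mgll, which encodes monoacylglycerol lipase, was higher with 139.8 CPM in progenitors and 10.7 in the preadipocyte set (log2 ratio 3.59). Has2, a hyaluronan synthase gene, joined Ugdh among the higher genes of its list (29.9 CPM in progenitors, 9.10 in the preadipocyte set, log2 ratio 1.61), and Fgf10 had 2.74 CPM in progenitors and 29.3 in the preadipocyte set (log2 ratio -3.02). The 4 cell cycle genes Ccna2, Top2a, Cdk1 and Rrm2 were called higher with log2 ratios of 1.92, 1.62, 1.46 and 1.27, and 53.4% of the Ccna2 counts of progenitors came from 5 cells. After thinning, 4.11% of progenitors (2.83 to 5.76) and 2.66% of the preadipocyte set (1.74 to 3.87) had at least 3 cell cycle genes counted.

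The F3 set was closer to progenitors in Pi16 and Sfrp4 than the preadipocyte set was, each comparison read on its own. Pi16 stood at 1196, 1987, 1681 and 1888 CPM in progenitors and at 266, 697, 268 and 398 CPM in the F3 set (log2 ratio 2.02), against 119.6 CPM in the pooled preadipocyte set (log2 ratio 3.79). Sfrp4 had 578 CPM in progenitors and 328 in the F3 set (log2 ratio 0.82, not called), and in A0309 it was lower in progenitors, at 488 against 524 CPM. Progenitors stood apart from the F3 set in Ptx3, a soluble pattern recognition protein gene (109 CPM in progenitors, 7.46 in the F3 set, log2 ratio 3.69), and in Pcsk6, a proprotein convertase gene (30.7 CPM in the F3 set, log2 ratio of progenitors over it 3.31). Of 10 cell cycle genes, 5 were called higher in progenitors against the F3 set, Ccnb1, Mki67, Ccna2, Top2a and Birc5, against 1.33% of all genes. The median of the list was 1.58. In progenitors 5 cells held 67.0% of the Ccnb1 counts, 59.2% of Top2a, 53.4% of Ccna2 and 44.1% of Mki67. At least 3 of the 10 genes were counted in 9.99% of progenitors and 8.47% of the F3 set. After thinning the shares were 4.11% (2.83 to 5.76) and 3.47% (1.28 to 7.40), with overlapping intervals. Progenitors had less of Cpxm2, a carboxypeptidase-like gene (0.576 CPM in progenitors, 45.1 in the F3 set, log2 ratio -4.87), of the complement gene C7 (15.6 CPM in progenitors, 142 in the F3 set, log2 ratio -3.10) and of Tgfbi, a TGF-beta induced matrix gene (25.1 CPM in progenitors, 168 in the F3 set, log2 ratio -2.69). Osmr, at 75.2 CPM in progenitors, was at 168 CPM in the preadipocyte set (log2 ratio -1.15) and 106 CPM in the F3 set (log2 ratio -0.49), and was called in neither.

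Cells outside the fibroblast gate seldom met the rule. Among 12081 cells with a hashtag name that failed the gate, 147 (1.22%) had at least 3 rule genes counted, with a median of 53512 counts. Of these, 80 failed on macrophage genes, 65 of them on that condition alone. The authors named 367 cells doublets, of which 281 passed the fibroblast gate and 68 met the whole rule, and these are not among the 791 progenitors.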

How the data were processed

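The values are counts in whole numbers, as the authors deposited them: 1 table gives transcripts of 30084 genes in 15741 cells and the other gives tags of 15 hashtags in 758098 barcodes, which include all 15741 cell barcodes. GRCm38, Bowtie2 2.4.2, cutadapt 3.4 and R (3.6.3 and 4.1.2) stand in the list of builds and tools, per the submitters' processing notes, with no role stated. The sources used here do not give whether reads or molecules were counted or whether strand was used, so genes with an annotated gene on the opposite strand, such as Smpd3, Bmp6 and Timp3, may share reads with it. Per the file headers, the authors gave each cell a hashtag or the word doublet, and cells named doublet were left out. No further doublet caller was run. The cells had 6596 to 473807 counts, with a median of 34182.

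Counts were summed over the cells of a class, in the pool and per hashtag, and scaled to CPM. With 1 transcript library and hashtags of unknown genotype no test was run, and the size rule used a pseudocount of 1 CPM, a filter of 5 CPM and hashtags with at least 20 cells of both classes. Thinning to 15000 counts used seed 1. Intervals are 95% exact Poisson or Clopper-Pearson and cover counting error only. The scripts ran in Python 3.11.15 with numpy 2.4.6, pandas 2.3.3 and scipy 1.17.1, and the comparison was checked on simulated counts. Gene positions are from GENCODE vM21, and 96.3% of symbols were in the gene name table. Of 409 listed genes, 406 were measured. The cells, gene sets and lists were chosen with earlier results of these data known. Named genes are the rule genes and given markers, Clec4e, Osm, Osmr and Tgfb1, up to 4 called genes of each list with the largest ratios and its uncalled gene with the highest CPM, and, at 20 CPM or more, the 15 genes called higher and the 10 called lower with the largest ratios. Genes outside that rule (Plxnd1, Col18a1, Fn1, Efemp1, Mfap5, Cd34, Procr, Ly6c1, Cd248, Pparg, Cd74, Retnla, Ccl2 and Daglb among them) were named after their values were seen. Alternatives covered the number of rule genes, thinning, the hashtag assignment, cell quality, the macrophage limit, the filter, the pseudocount, the scaling and each hashtag left out.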

Additional observations from a re-analysis of the deposited data

How the results depend on the processing

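None of the 103 genes named against the other gated fibroblasts reversed a call under the 19 other settings, while some list medians changed sign. Those of the TGF-beta and chemokine genes did so in thinned cells (0.13 and -0.02) and under a stricter tag assignment (0.17 and -0.10). The surface antigen median turned to -0.0075 under that assignment. Without cycling cells the chemokine, cell cycle and Mincle pathway medians were negative (-0.10, -0.08 and -0.01). The median of the 4 Mincle pathway genes was also negative in thinned cells (-0.11) and without cells with a count of Cd74, Lyz2, H2-Ab1 or Tyrobp (-0.02). With 2 or 4 rule genes required, progenitors were 34.0 or 18.9% of gated fibroblasts, and at 15000 counts 21.1%. With 2 rule genes, 152, 142 and 68 genes were called lower against the other gated fibroblasts, the preadipocyte set and the F3 set, and the share of higher calls among all calls against the other gated fibroblasts was 56.1%, against 46.8% with 3. Thinning gave 209 genes lower against the F3 set. Where a single tag had to hold 75% of at least 10 tag counts, 146 progenitors were left, 22.4% of gated fibroblasts and 17.8% in the lowest hashtag. Then 138 genes were called higher and 167 lower against the other gated fibroblasts, 124 and 126 of them among those called above, and 155 and 120 against the preadipocyte set. Against the F3 set no hashtag then had 20 cells, and the pool alone gave 1459 and 1074. A pseudocount of 5 CPM gave 99 higher and 77 lower against the F3 set. A filter at 20 CPM, which tests fewer genes, gave 162 lower against the other gated fibroblasts, 157 lower against the preadipocyte set and 95 higher against the F3 set. With the size rule in the pool alone, chosen after seeing the data, 348 and 399, 399 and 409, and 394 and 390 genes were called higher and lower in the 3 comparisons. For settings other than the filter the cause was not tested.

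Of 103 genes named against the other gated fibroblasts, 80 were called, and 28 of these lost the call under at least 1 setting, 23 of them under the stricter tag assignment. Of genes higher in progenitors, those 23 held Bmp2, Col14a1, Efnb2, Mrgprg, Pdgfc, Ptgs1, Thbs4, Timp3 and Wnt2. The lower ones were Fabp4, Acvr2a, C4b, Cxcl12, Fbln1, Fgf10, Fmod, G0s2, Gucy1a1, Igfbp3, Meox1, Meox2, Olfm2 and Unc5b. Thbs4 lost the call under 7 settings, with log2 ratios of 1.66 to 2.76, among them that without cells that had a count of Cd74, Lyz2, H2-Ab1 or Tyrobp (1.72), which was chosen after seeing the data and in which Bmp4 was lost as well (-1.31). That setting gave 214 genes higher and 258 lower against the other gated fibroblasts, and leaving out cycling cells, also chosen after seeing the data, gave 223 and 276. Leaving out each hashtag in turn gave 236 to 253 genes higher and 270 to 288 lower against the other gated fibroblasts. No paired analysis was possible because the labels give no replicate numbers and no test was run on this single library; the size rule sets both classes side by side within each hashtag.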
